A study of Homo sapiens with 12 samples.

Results

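The 32 genes described here are recurrently mutated in chronic lymphocytic leukaemia, a malignancy of B lymphocytes, and were chosen from a fixed list of symbols. All 32 had a row in the table of 57820 genes. RNA was sequenced from JVM3, HG3 and MEC1, established human B cell lines that the labels class as chronic lymphocytic leukaemia. Each line was measured with wild-type U1 and with U1 carrying the g.3A>C mutation, which replaces the third base of this small nuclear RNA. The 6 groups held 2 technical replicates each, so 12 libraries in all, and no other treatment, time or allele is named in the labels. The sources used here do not say how the mutation was introduced or whether a mutant line is 1 clone. A second table listed 170723 splice junctions in 6 columns, 1 for each line and U1 status. Of these junctions, 662 lay in 31 of the 32 genes, while EGR2 could not be placed.

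Driver genes are those whose mutation gives leukaemic cells an advantage. In this leukaemia they fall into a few roles: splicing and export of RNA, the DNA damage response, Notch signalling, NF-kB signalling, B cell receptor and MAP kinase signalling, and chromatin. U1 is the RNA of the spliceosome whose 5′ end pairs with the donor, or 5′ splice site, where an intron begins. The comparison of mutant with wild-type U1 asks whether genes that are mutated in this leukaemia are also altered in level or splicing by the U1 mutation.

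The 5′ ends of both U1 forms are shown because the third base, in capitals, is the only difference between them. The sequences they pair with in full follow, with the intron base that faces the third U1 base in capitals. All are written 5′ to 3′, with T for U, and the wild-type end was read from the RNU1-1 transcript of GENCODE release 29.
wild-type U1, first 11 bases: atActtacctg
mutant U1, first 11 bases: atCcttacctg
full complement of wild-type U1: caggtaagTat
full complement of mutant U1: caggtaagGat

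Donors of the driver genes are shown in the same window, 3 exon bases followed by 8 intron bases, with intron base 6 in capitals, since this is the base that faces the changed position. They were read from GENCODE release 29 transcripts that run through the site. The first 2 belong to junctions whose use passed the test described further on, the next 2 are those of the junctions that compete with the ASXL1 junction, and the others are donors with G at that base whose use was at least 5 points higher with mutant U1 without passing the test. The rise of the XPO1 donor is a mean over lines and did not hold in every line. Other donors with G are not shown, and some of them were used less with mutant U1, down to -4.7 points in MGA. Names give the last exon base in hg19.
ASXL1 donor, 31018979: caggttagGat
CREBBP donor, 3795441: aaggtgtgGac
ASXL1 donor, 31017856: caggtgagTgg
ASXL1 donor, 31017234: caggtatgTgt
ZMYM3 donor, 70466481: acagtgagGac
CREBBP donor, 3828012: caagtaagGat
ATM donor, 108093913: gtggtaggGgc
XPO1 donor, 61752627: caggtaaaGaa

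The libraries held 29880079 to 39716818 counts assigned to genes, and the junction columns 15537369 to 17917160 reads. RNU1-1, a U1 transcript, averaged 43 CPM (counts scaled to library size, as in edgeR) with wild-type and 58.8 CPM with mutant U1 in JVM3, 29.1 and 207 CPM in HG3, and 12.2 and 22.5 CPM in MEC1. U1 has near-identical gene copies that can split reads, and the counts do not show the mutated base, so these values do not test the labels. All 7 B cell markers, among them MS4A1 and PAX5, were at 1 CPM or more in every group, with summed levels of 1861 to 2166 CPM with wild-type and 1807 to 2062 CPM with mutant U1. Of 4 markers of this leukaemia, CD5 was at 41.7 CPM in wild-type HG3 but at 0.466 CPM in JVM3 and 0.102 CPM in MEC1, and ROR1 was at 17, 0.727 and 0.258 CPM. CD5 and ROR1, surface proteins used to recognise this leukaemia, were therefore near 0 in JVM3 and MEC1. The other 2 markers were at 1 CPM or more in every group. With wild-type U1, FCER2 was at 334 CPM in JVM3, 694 in HG3 and 186 in MEC1, and LEF1 at 27.2, 3.43 and 12.9 CPM. Summed markers of T, NK, myeloid, erythroid, fibroblast and epithelial cells reached at most 4.84 CPM in any group.

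The driver genes were well expressed in all 3 lines. Their mean level over the 12 libraries, of both U1 forms, ran from 11.2 to 560 CPM with a median of 120 CPM. The median was 6.03 CPM for the 21270 genes tested, and single libraries held 92 to 26636 counts per driver gene. Levels can be set between genes only per length, as CPM per kilobase of exon, given here for wild-type U1. On that scale BIRC3, a ubiquitin ligase that restrains NF-kB, was highest in JVM3 at 99.5 CPM per kilobase, and stood at 72 in HG3 and 37.4 in MEC1. SF3B1, the splicing factor that holds the branch point, followed with 62.7, 63.2 and 80.3 CPM per kilobase. EGR2, a transcription factor induced by B cell receptor signals, was among the lowest with 1.33, 6.15 and 2.18 CPM per kilobase.

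**Figure D1:**
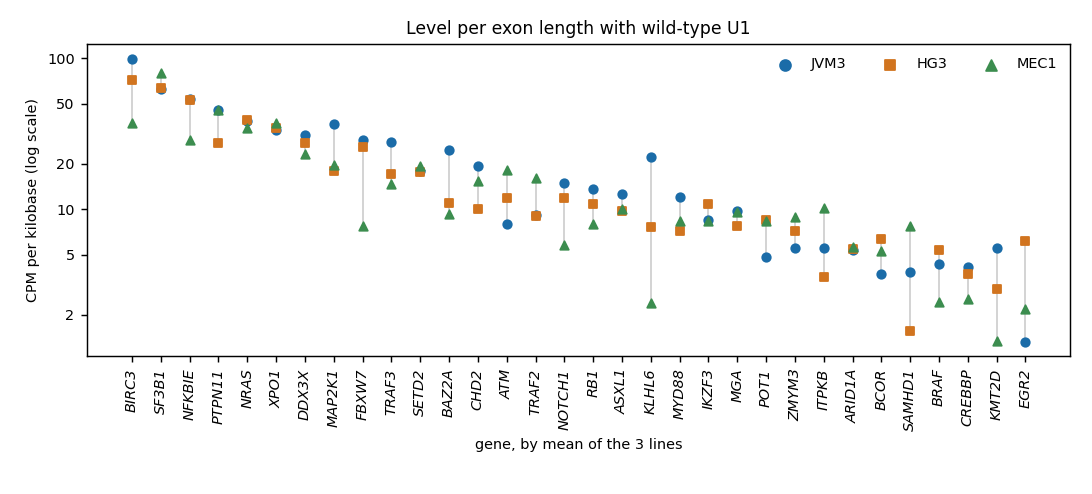
Level of each of the 32 driver genes with wild-type U1, in CPM per kilobase of exon on a log axis, as the mean of 2 technical replicates in each line (JVM3 circles, HG3 squares, MEC1 triangles). KLHL6 spans the widest range between lines, 22.3 in JVM3 to 2.41 in MEC1, while ARID1A lies between 5.37 and 5.66.

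Among cells with wild-type U1, the lines differed far more in some drivers than in others. KLHL6, an adaptor of a ubiquitin ligase needed for germinal centres, was 9.25-fold higher in JVM3 than in MEC1. SAMHD1, which breaks down nucleotides for DNA synthesis, was 5.03-fold higher in MEC1 than in HG3, and EGR2 4.62-fold higher in HG3 than in JVM3. By contrast, ARID1A differed by 1.06-fold between the highest and lowest line, SETD2 by 1.1-fold and XPO1 by 1.11-fold. JVM3 was the highest line for 16 of the 32 genes, MEC1 for 10 and HG3 for 6. These are 1 cell line each, so the differences are descriptions without a test.

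With mutant U1, no driver gene passed the test across the 3 lines, and within lines the changes were small and often of different sign. Across lines 0 of 32 passed (edgeR quasi-likelihood test, adjusted p under 0.05, replicates summed and the line as a block), against 784 of 21270 genes, 3.69%. At an unadjusted p under 0.05 there were 9 of the 32 (28.1%), 4 higher and 5 lower, against 21.8% of all genes tested. DESeq2 called 3 of the 32, namely SF3B1, NOTCH1 and BCOR, and 1315 of all genes. Without the first wild-type replicate of HG3 the edgeR test called NOTCH1 and BCOR, and 1019 of all genes. Without the first mutant replicate of HG3 it called NOTCH1 and 1024 of all genes. Without the whole of HG3 it called BCOR and 320 of all genes. Shares of all genes under these settings are not given here, so these calls are a description. The members' median change across lines was 0.03 on the log2 scale, against -0.01 for all genes tested, and their median absolute change 0.13 against 0.20.

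Within single lines more of the driver genes passed, in both directions. In JVM3, 18 of the 32 passed (8 rose and 10 fell), against 22.4% of all genes tested (10.4% rose and 12% fell). In HG3, 21 passed (13 rose and 8 fell), against 38.3% of all genes (18.7% rose and 19.6% fell). In MEC1, 19 passed (12 rose and 7 fell), against 36.6% of all genes (18% rose and 18.6% fell). In bulk RNA, fewer cells that express a gene and less RNA per cell cannot be told apart. These p-values measure only the spread between technical replicates of 1 line each. No driver changed by 2-fold or more in any line, against 1.8%, 6.65% and 4.45% of all genes that passed and did so in JVM3, HG3 and MEC1. The driver genes had higher counts than most genes, and the part of this in the share that passed was not tested. In 12 of the 32 (37.5%) the log2 fold change had 1 sign in all lines, 7 higher and 5 lower with mutant U1, against 42.7% of all genes.

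**Figure D2:**
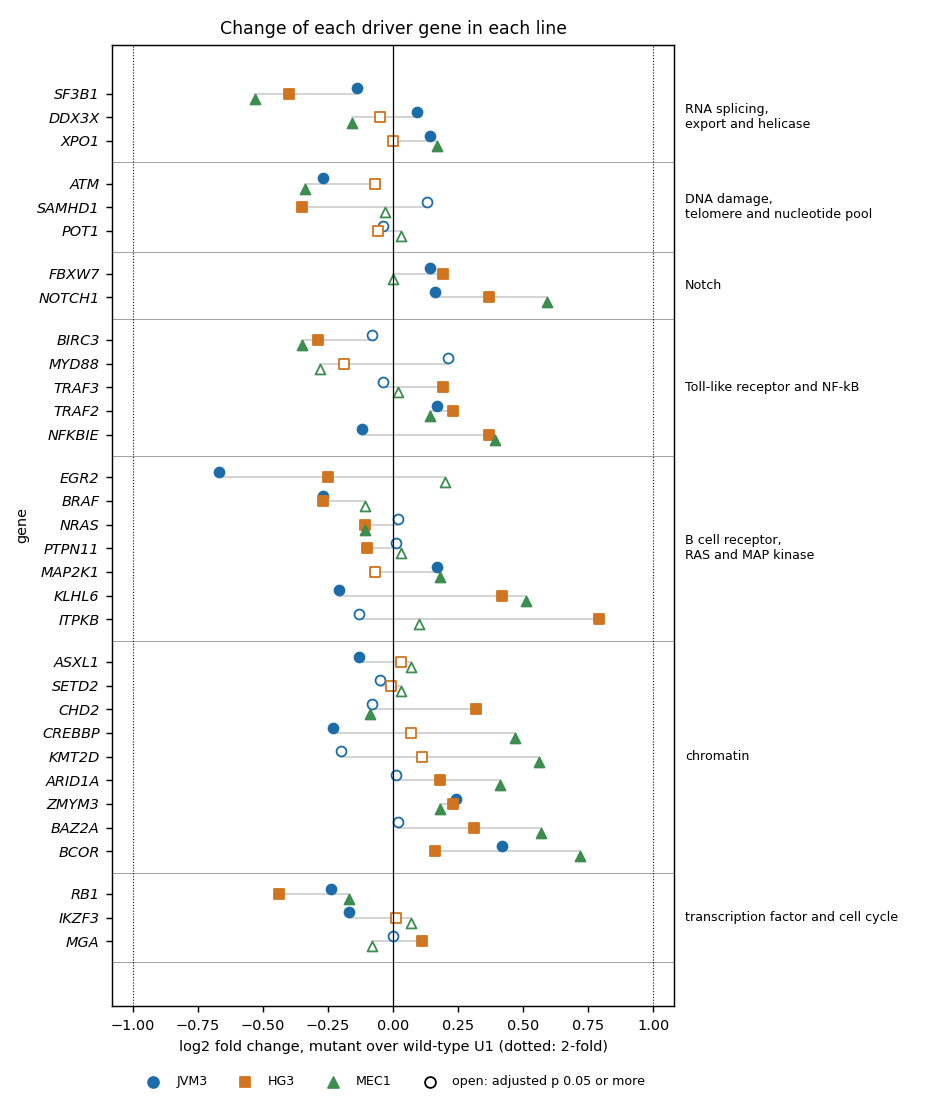
Log2 fold change of mutant over wild-type U1 in JVM3 (circles), HG3 (squares) and MEC1 (triangles) for the 32 driver genes, grouped by role, with open symbols where the adjusted p was 0.05 or more and dotted lines at 2-fold. All values lie between -0.67 (EGR2 in JVM3) and 0.79 (ITPKB in HG3).

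The response itself differed between lines for 23 of the 32 genes (edgeR test of the line by U1 status interaction, adjusted p under 0.05), against 32% of all genes tested. It was again a test against technical replicates. The widest spreads of log2 fold change among the 32 were those of ITPKB, from -0.13 in JVM3 to 0.79 in HG3, and EGR2, from -0.67 in JVM3 to 0.20 in MEC1.

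Among genes of RNA splicing and export, SF3B1 (ENSG00000115524, hg19 junctions from 198263305 to 198285152 on chromosome 2, minus strand) was lower with mutant U1 in each line. It stood at 566 and 583 CPM with wild-type and 514 and 527 CPM with mutant U1 in JVM3, 573 and 585 against 445 and 434 in HG3, and 720 and 753 against 508 and 513 in MEC1. The mutant libraries were below the wild-type ones in every line, with log2 fold changes of -0.14 (adjusted p = 0.000989), -0.40 (adjusted p = 9.18e-14) and -0.53 (adjusted p = 1.9e-17). Across lines its log2 fold change was -0.36 ± 0.11 (SE, n = 3 lines, adjusted p = 0.0748), and the fall differed in size between lines (adjusted p = 1.74e-08). DDX3X, an RNA helicase of translation, stood at 484 and 497 CPM with wild-type and 520 and 526 CPM with mutant U1 in JVM3, 432 and 446 against 419 and 429 in HG3, and 360 and 373 against 326 and 330 in MEC1. It rose in JVM3 (log2 fold change 0.09, adjusted p = 0.0369) and fell in MEC1 (-0.16, adjusted p = 0.000118), and in HG3 the change of -0.05 did not pass. XPO1, the exporter of proteins from the nucleus, rose in JVM3 by 0.14 and in MEC1 by 0.17 on the log2 scale, with 0.00 in HG3.

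Of the DNA damage genes, ATM (ENSG00000149311, junctions from 108093913 to 108188100 on chromosome 11, plus strand), the kinase that answers DNA breaks, stood at 187 and 196 CPM with wild-type and 158 and 159 CPM with mutant U1 in JVM3, 274 and 294 against 269 and 271 in HG3, and 420 and 458 against 332 and 363 in MEC1. It fell in JVM3 (log2 fold change -0.27, adjusted p = 4.82e-05) and in MEC1 (-0.34, adjusted p = 4.44e-07), while the -0.07 in HG3 did not pass. Its change across lines was -0.23 ± 0.08 (SE, n = 3 lines, adjusted p = 0.157). SAMHD1 was at 41.6 and 44.4 CPM with wild-type and 46.8 and 47.4 CPM with mutant U1 in JVM3, 17.3 and 17.6 against 13.2 and 14.2 in HG3, and 86.7 and 88.5 against 85.9 and 85.7 in MEC1. It fell in HG3 (log2 fold change -0.35, adjusted p = 5.2e-05), while 0.13 in JVM3 and -0.03 in MEC1 did not pass, and its response differed between lines (adjusted p = 7.82e-05). POT1, which caps telomeres, had log2 fold changes of -0.04, -0.06 and 0.03, none of which passed.

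NOTCH1 (ENSG00000148400, junctions from 139396940 to 139438476 on chromosome 9, minus strand), a receptor whose cleaved end switches on genes in the nucleus, was higher with mutant U1 in each line. It stood at 158 and 155 CPM with wild-type and 174 and 174 CPM with mutant U1 in JVM3, 129 and 118 against 154 and 165 in HG3, and 64.3 and 55.6 against 91.9 and 89.3 in MEC1. No mutant library overlapped a wild-type library of its line, and the log2 fold changes were 0.16 (adjusted p = 0.0226), 0.37 (adjusted p = 9.8e-07) and 0.59 (adjusted p = 1.13e-09). Across lines it came closest of the 32 to the threshold, with 0.37 ± 0.13 (SE, n = 3 lines, adjusted p = 0.0688). MEC1 had the lowest NOTCH1 level and the largest change, and the response differed between lines (adjusted p = 0.000142). FBXW7, which marks cleaved Notch for degradation, rose in JVM3 (log2 fold change 0.14) and HG3 (0.19), with 0.00 in MEC1, where its level was lowest.

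In Toll-like receptor and NF-kB signalling, BIRC3 (ENSG00000023445) stood at 742 and 754 CPM with wild-type and 686 and 730 CPM with mutant U1 in JVM3, 530 and 553 against 445 and 439 in HG3, and 276 and 286 against 214 and 227 in MEC1. The mutant libraries were lower in every line, and the fall passed in MEC1 (log2 fold change -0.35, adjusted p = 6.28e-11) and in HG3 (-0.29, adjusted p = 2.83e-09), with -0.08 in JVM3. NFKBIE, an inhibitor that holds NF-kB in the cytoplasm, was at 138 and 138 CPM with wild-type and 125 and 129 CPM with mutant U1 in JVM3, 140 and 133 against 175 and 178 in HG3, and 75.2 and 73.5 against 99.2 and 95.9 in MEC1. It fell in JVM3 (log2 fold change -0.12, adjusted p = 0.0266) and rose in HG3 (0.37, adjusted p = 1.42e-10) and in MEC1 (0.39, adjusted p = 1.74e-10), a response that differed between lines (adjusted p = 2.01e-10). TRAF3, an adaptor that works with BIRC3, was at 231 and 231 CPM with wild-type and 218 and 230 CPM with mutant U1 in JVM3, 142 and 141 against 157 and 165 in HG3, and 121 and 120 against 120 and 125 in MEC1. It rose in HG3 (log2 fold change 0.19, adjusted p = 9.05e-05), with -0.04 in JVM3 and 0.02 in MEC1. TRAF2, a partner of TRAF3, rose in all 3 lines, with log2 fold changes of 0.17, 0.23 and 0.14, yet had an adjusted p of 0.243 across lines. MYD88, the adaptor of Toll-like receptors, changed by 0.21, -0.19 and -0.28 on the log2 scale, and none of these passed.

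**Figure D3:**
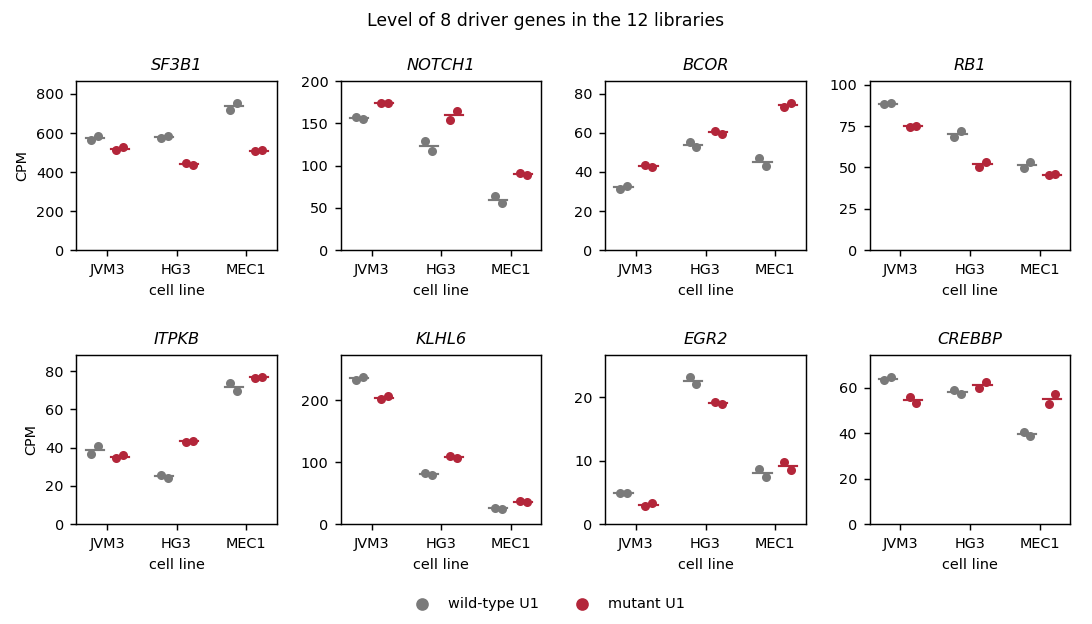
CPM of 8 driver genes in the 12 libraries (points are single technical replicates, bars their mean, grey wild-type and red mutant U1, each axis from 0). SF3B1 and RB1 are lower and NOTCH1 and BCOR higher with mutant U1 in every line, while the mean of ITPKB, KLHL6, EGR2 and CREBBP is higher in some lines and lower in others.

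In B cell receptor and MAP kinase signalling, ITPKB (ENSG00000143772, junctions from 226822587 to 226923228 on chromosome 1, minus strand), a kinase of inositol phosphates that limits receptor signals, had the largest change of any driver in any line. It stood at 36.7 and 40.7 CPM with wild-type and 34.4 and 36.3 CPM with mutant U1 in JVM3, 25.9 and 24.1 against 43.1 and 43.4 in HG3, and 73.7 and 69.6 against 76.5 and 76.9 in MEC1. In HG3 the mutant libraries were above the wild-type ones (log2 fold change 0.79, adjusted p = 2.59e-15), while -0.13 in JVM3 and 0.10 in MEC1 did not pass. Its change across lines, 0.24 ± 0.28 (SE, n = 3 lines, adjusted p = 0.473), was -0.02 without HG3 (adjusted p = 0.947). KLHL6 was at 233 and 237 CPM with wild-type and 202 and 206 CPM with mutant U1 in JVM3, 82.7 and 79.2 against 110 and 107 in HG3, and 26.4 and 24.5 against 36.6 and 36 in MEC1. It fell in JVM3 (log2 fold change -0.21, adjusted p = 5.45e-05) and rose in HG3 (0.42, adjusted p = 2.26e-11) and in MEC1 (0.51, adjusted p = 3.45e-11), and its response differed between lines with the smallest adjusted p of the 32 genes (7.96e-14). EGR2 was at 4.88 and 4.93 CPM with wild-type and 2.8 and 3.34 CPM with mutant U1 in JVM3, 23.2 and 22.1 against 19.2 and 18.9 in HG3, and 8.64 and 7.45 against 9.87 and 8.56 in MEC1. It fell in JVM3 (log2 fold change -0.67, adjusted p = 0.000157) and HG3 (-0.25, adjusted p = 0.0123), and the MEC1 libraries overlapped. The JVM3 values rest on the lowest level of any driver.

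MAP2K1, a kinase of the MAP kinase path, was at 139 and 137 CPM with wild-type and 155 and 156 CPM with mutant U1 in JVM3, 66.8 and 67.3 against 63.4 and 64 in HG3, and 74.6 and 73.9 against 85 and 83.5 in MEC1. It rose in JVM3 (log2 fold change 0.17, adjusted p = 0.000634) and in MEC1 (0.18, adjusted p = 0.000326), with -0.07 in HG3. BRAF, the kinase above MAP2K1, fell in JVM3 (log2 fold change -0.27, adjusted p = 4.04e-06) and HG3 (-0.27, adjusted p = 8.18e-07), with -0.11 in MEC1, and had an adjusted p of 0.15 across lines. NRAS, the GTPase above BRAF, fell in HG3 and MEC1 (-0.11 each), and PTPN11, a phosphatase that aids RAS activation, fell in HG3 (-0.10).

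Of 9 chromatin genes, 6 rose and 1 fell in MEC1, 5 rose and 0 fell in HG3, and 2 rose and 2 fell in JVM3. Over all genes tested, the shares that rose and fell were 18% and 18.6% in MEC1, 18.7% and 19.6% in HG3, and 10.4% and 12% in JVM3. Differences between lines were tested gene by gene and not for the group. BCOR (ENSG00000183337, junctions from 39911653 to 40036260 on chromosome X, minus strand), a corepressor of a polycomb complex, stood at 31.1 and 33 CPM with wild-type and 43.6 and 42.6 CPM with mutant U1 in JVM3, 55.4 and 52.5 against 60.8 and 59.6 in HG3, and 47.2 and 42.9 against 73.3 and 75.1 in MEC1. It rose in every line, with log2 fold changes of 0.42 (adjusted p = 7.82e-08), 0.16 (adjusted p = 0.0122) and 0.72 (adjusted p = 9.79e-16). Across lines its change was 0.43 ± 0.16 (SE, n = 3 lines, adjusted p = 0.0713). BAZ2A, a part of the complex that silences ribosomal DNA, was at 270 and 272 CPM with wild-type and 280 and 270 CPM with mutant U1 in JVM3, 125 and 116 against 148 and 150 in HG3, and 102 and 99.9 against 150 and 150 in MEC1. Its rise passed in MEC1 (log2 fold change 0.57, adjusted p = 5.48e-16) and in HG3 (0.31, adjusted p = 1.35e-08), and the JVM3 libraries overlapped. ARID1A, a DNA-binding subunit of the SWI/SNF remodeller, was at 86.3 and 84.6 CPM with wild-type and 88.2 and 84.2 CPM with mutant U1 in JVM3, 87.9 and 86.2 against 95.3 and 101 in HG3, and 94 and 86.5 against 116 and 125 in MEC1. It rose in HG3 (log2 fold change 0.18) and MEC1 (0.41), and the JVM3 libraries overlapped.

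CREBBP (ENSG00000005339), a histone acetyltransferase, stood at 63.2 and 64.6 CPM with wild-type and 55.9 and 53.3 CPM with mutant U1 in JVM3, 58.8 and 57.4 against 59.6 and 62.4 in HG3, and 40.5 and 38.6 against 52.8 and 57.3 in MEC1. It fell in JVM3 (log2 fold change -0.23, adjusted p = 0.000453) and rose in MEC1 (0.47, adjusted p = 2.49e-10), and the response differed between lines (adjusted p = 4.12e-10). CHD2 (ENSG00000173575), a chromatin remodeller, was at 324 and 326 CPM with wild-type and 308 and 306 CPM with mutant U1 in JVM3, 164 and 175 against 208 and 216 in HG3, and 260 and 267 against 243 and 251 in MEC1. It fell in MEC1 (log2 fold change -0.09, adjusted p = 0.0415) and rose in HG3 (0.32, adjusted p = 9.34e-10), with -0.08 in JVM3. ASXL1 (ENSG00000171456), a partner of a polycomb deubiquitinase, was at 174 and 173 CPM with wild-type and 157 and 160 CPM with mutant U1 in JVM3, 133 and 131 against 133 and 137 in HG3, and 138 and 138 against 144 and 146 in MEC1. It fell in JVM3 (log2 fold change -0.13, adjusted p = 0.0112), with 0.03 in HG3 and 0.07 in MEC1. ZMYM3, a zinc finger protein of corepressor complexes, rose in all 3 lines by 0.24, 0.23 and 0.18 on the log2 scale, with an adjusted p of 0.157 across lines and of 0.783 for a difference between lines. KMT2D, a histone methyltransferase of enhancers, rose in MEC1 by 0.56, where its mutant replicates lay apart at 35.1 and 46.4 CPM. SETD2, another histone methyltransferase, had -0.05, -0.01 and 0.03, and none of these passed.

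RB1 (ENSG00000139687, junctions from 48878185 to 49039134 on chromosome 13, plus strand), which holds cells before DNA replication, fell in every line, as SF3B1 did. It stood at 88.4 and 88.8 CPM with wild-type and 74.7 and 75.1 CPM with mutant U1 in JVM3, 68.2 and 72.2 against 50.2 and 53.4 in HG3, and 49.4 and 53.5 against 45.4 and 46 in MEC1. The log2 fold changes were -0.24 (adjusted p = 7.63e-05), -0.44 (adjusted p = 3.58e-10) and -0.17 (adjusted p = 0.00546), and -0.28 ± 0.08 (SE, n = 3 lines, adjusted p = 0.101) across lines. IKZF3, a transcription factor of B cells, was at 84.3 and 85.3 CPM with wild-type and 74.2 and 76.7 CPM with mutant U1 in JVM3, 111 and 105 against 108 and 109 in HG3, and 83.4 and 82.6 against 87.2 and 87.2 in MEC1, and fell in JVM3 (log2 fold change -0.17, adjusted p = 0.00259) with 0.01 and 0.07 in the other lines. MGA, a partner of MAX that opposes MYC, rose in HG3 by 0.11, with 0.00 in JVM3 and -0.08 in MEC1.

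The share of the drivers' partners that passed the test across lines was close to that of all genes. Of 109 other genes in 11 lists, each gene counted once, 107 had a row and were tested, 2 rose, 2 fell and 103 did not pass, against 3.69% of all genes that passed in either direction. NXF1, the exporter of messenger RNA and itself a driver of this leukaemia, rose by 0.49 ± 0.10 (SE, n = 3 lines, adjusted p = 0.0293) on the log2 scale. MAP2K2, the second kinase of the MAP2K1 pair, rose by 0.33 ± 0.04 (SE, n = 3 lines, adjusted p = 0.0488) on the same scale. CHEK2, a kinase that ATM activates, had a log2 fold change of -0.57 ± 0.05 (SE, n = 3 lines, adjusted p = 0.0222). XPO5, the exporter of small RNA precursors, had -0.42 ± 0.05 (SE, n = 3 lines, adjusted p = 0.0274).

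By list, 1 of 23 other drivers rose and 1 fell (NXF1 and CHEK2), and 1 of 9 genes of ATM signalling fell (CHEK2) with a list median of -0.27, the lowest of the lists. In nuclear export 1 of 7 rose and 1 fell, and in the MAP kinase core 1 of 12 rose. None of the genes tested passed among SF3b subunits (6), shelterin (5), Notch targets and pathway (9), NF-kB core (15), the KMT2D complex (7), the BCOR complex (8) and SWI/SNF subunits (9), and their medians lay between -0.03 and 0.18. The SF3b partners of SF3B1 had a median of 0.09, against -0.36 for SF3B1 itself, and the Notch list a median of 0.18 beside 0.37 for NOTCH1.

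Within lines the lists are given by how many genes rose and fell, beside the shares of all genes tested that rose and fell in JVM3 (10.4% and 12%), HG3 (18.7% and 19.6%) and MEC1 (18% and 18.6%). Of the 9 genes of ATM signalling, which carry the alarm from broken DNA to the cell cycle, 0 rose and 8 fell in JVM3, 0 and 7 in HG3, and 1 and 6 in MEC1. The 23 other drivers had 5 that rose and 8 that fell in JVM3, 4 and 10 in HG3, and 9 and 6 in MEC1. The 15 genes of the NF-kB core had 3 and 2 in JVM3, 5 and 3 in HG3, and 9 and 3 in MEC1. The 12 genes of the RAS and MAP kinase core had 2 and 2, 3 and 3, and 7 and 3 in the same order of lines, and the 9 Notch genes 1 and 1, 4 and 0, and 4 and 2. ATM signalling thus had more genes that fell than rose in all lines, while the NF-kB core had more that rose. The 6 SF3b subunits had 3 and 0, 1 and 1, and 3 and 1, and the 5 shelterin genes 2 and 0, 2 and 2, and 2 and 2. In the complexes of chromatin the counts were 0 and 1, 1 and 1, and 2 and 1 of 7 for KMT2D, 1 and 1, 2 and 3, and 3 and 1 of 8 for BCOR, and 0 and 2, 3 and 3, and 1 and 4 of 9 for SWI/SNF. The 7 genes of nuclear export had 1 and 1, 1 and 4, and 4 and 1. These counts rest on technical replicates, as those of the drivers do.

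Use of 4 junctions in drivers passed the main test of mutant against wild-type U1. The share of junctions that passed was no larger than that over all junctions tested. Use of a junction is its share of the reads that end at the same acceptor, the end of the intron. Of the 662 junctions listed in driver genes, 404 were annotated in GENCODE release 29, and 170 in 28 genes could be tested, at 76 acceptors. ARID1A, ITPKB and RB1 had no acceptor with 2 competing junctions of at least 20 reads each. A junction was called where the adjusted p was under 0.05 (edgeR diffSpliceDGE, the line as a block), the mean change at least 5 points and the sign the same in all lines. There were 4 called junctions, 2.35% of those tested, against 2.78% of all 35857 junctions tested. All 4 were used more with mutant U1, against 2% of all junctions, and 0 less, against 0.784%. The minimum of 20 reads is counted over all 6 columns. Of the 4, CHD2 alone had that many in the wild-type columns (31), while ASXL1 had 14, BRAF 6 and CREBBP 0, so these 3 reached it through the mutant columns and had to be higher there to be tested. The number of calls and their direction are therefore a description. At a minimum of 10 reads, which its wild-type reads alone reach, ASXL1 was called as well (adjusted p = 9.08e-06).

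The calls were not the same junctions under every setting. In these settings too, a junction could reach the minimum through the mutant columns, so a call that remained is not by itself separate support. At a minimum of 50 reads and without HG3, ASXL1 and CHD2 were called, and without MEC1 ASXL1 and BRAF. Without JVM3 there were 4 calls, of which 3 were the same, ASXL1, CHD2 and BRAF. The other was a TRAF3 junction from 103352606 to 103357662 on chromosome 14, used less with mutant U1 (-9.0 points, adjusted p = 0.0144). With limma on log ratios 2 were called, both in CREBBP, and 1 of them was among the 4.

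The first was in ASXL1, where 3 donors compete for the acceptor at 31019124 on chromosome 20. The donor nearest to it, at 31018979, took 6 of 145 reads with wild-type and 44 of 197 with mutant U1 in JVM3, 6 of 140 and 32 of 104 in HG3, and 2 of 165 and 51 of 222 in MEC1. Its share rose from 3.2% ± 1.7 to 25.4% ± 4.7 (SD, n = 3 lines), by 22.1 points, and no mutant interval overlapped the wild-type one of its line. The adjusted p was 9.08e-06 by diffSpliceDGE at a minimum of 10 reads, which its wild-type reads alone reach. This donor closes a 315-base first exon of a noncoding ASXL1 transcript and differs from the full complement of mutant U1 at 1 of 11 bases, matching it at 10 and that of wild-type U1 at 9. The donor at 31017856, which has T at intron base 6, went from 69.8% ± 12.2 to 48.3% ± 7.2. That change of -21.5 points did not pass (adjusted p = 0.299). The ASXL1 call remained at 50 reads and without each line in turn. In each of these settings it reached the minimum only through the mutant columns, so they are no separate support. With limma on log ratios its adjusted p was 0.0599.

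In CREBBP, an unannotated donor at 3795441 on chromosome 16 was seen in mutant columns only. It joins the acceptor at 3795355 over an intron of 85 bases. It took 0 of 46, 0 of 43 and 0 of 27 reads with wild-type U1 in JVM3, HG3 and MEC1, and 6 of 43, 9 of 43 and 7 of 51 with mutant U1. Its mean share was 16.2% ± 4.1 (SD, n = 3 lines) with mutant U1, against wild-type upper bounds of 7.7%, 8.2% and 12.5% (95% Wilson intervals). The intervals of both U1 forms overlapped in JVM3 and MEC1 and not in HG3. The annotated donor at 3799628 held the remaining reads, 83.8% ± 4.1 with mutant U1. It was also joined to an annotated acceptor at 3795596. That junction had 0 wild-type and 3 mutant reads in JVM3, 0 and 0 in HG3, and 1 and 2 in MEC1. Whether the donor at 3795441 closes an exon that starts at 3795596 was not tested. The 22 mutant reads that met the minimum are the same reads that make the difference, so its p is not given as support. The acceptor at 3795355 had 253 reads over all columns. The junction from 3795441 had too few to be tested at a minimum of 50 reads or without any 1 line. A search of the 662 junctions for at least 3 reads in every mutant column and 0 in every wild-type column found 2, this one and a junction of MGA from 42028896 to 42046635 on chromosome 15. The MGA junction had 3, 3 and 5 mutant reads, and the reverse search of the 662 found 0. The whole table held 163 mutant-only junctions among its 170723. Its reverse count was not taken, so the direction is a description.

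CHD2 showed the skipping of a coding exon. The junction from 93498742 to 93510555 on chromosome 15, which is not annotated, leaves out an exon of 191 bases (93499689 to 93499879, exon 16 of 39). Such a length is not a multiple of 3. The skipping junction took 14 of 218 reads with wild-type and 34 of 221 with mutant U1 in JVM3, 5 of 113 and 20 of 123 in HG3, and 12 of 231 and 39 of 192 in MEC1. Its share rose from 5.3% ± 1.0 to 17.3% ± 2.6 (SD, n = 3 lines), by 12 points (adjusted p = 0.00552). The call remained without HG3, where its wild-type reads alone reach the minimum. It also remained at 50 reads and without JVM3, but there it reached the minimum through the mutant columns, which is no separate support. Without MEC1 the rise of 10.4 points had an adjusted p of 0.115, and with limma that of 12 points one of 0.118. Among junctions that share the donor at 93498742, where it competes with the junction into the skipped exon, it was not called. A second CHD2 acceptor, at 93541729, moved by 6.8 points towards the donor at 93541491, in every line but without passing (adjusted p = 0.601).

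BRAF (ENSG00000157764) included an extra exon more often. The exon lies at 140447166 to 140447247 on chromosome 7, on the minus strand, has 82 bases and belongs to annotated transcripts of the nonsense-mediated decay class, which carry an early stop. The junction from this exon to the next took 1 of 100 reads with wild-type and 5 of 101 with mutant U1 in JVM3, 3 of 111 and 23 of 98 in HG3, and 2 of 70 and 9 of 43 in MEC1. Its share rose from 2.2% ± 1.0 to 16.5% ± 10 (SD, n = 3 lines), by 14.3 points, and as with CREBBP no p is given for it, since its 6 wild-type reads are far below the minimum. The JVM3 intervals overlapped, and without HG3 or at a minimum of 50 reads the junction had too few reads to be tested. The junction into the same exon, tested among junctions that share its donor, took 1 of 100, 0 of 108 and 0 of 68 wild-type reads and 15 of 111, 33 of 108 and 9 of 43 mutant reads.

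Among junctions that share a donor, a junction into an annotated extra exon of TRAF3 (ENSG00000131323) was also used more with mutant U1. In this grouping 2 of 176 junctions were called (1.14%), against 1.8% of all, the BRAF one above and a TRAF3 junction from 103357754 to 103361410 on chromosome 14. The TRAF3 junction leads into an exon of 127 bases (103361410 to 103361536) of a nonsense-mediated decay transcript. Among the junctions linked to it by shared ends, none left this exon at 103361536. The reads therefore show use of the exon's acceptor and not inclusion of the whole exon. The junction took 9 of 408 reads with wild-type and 48 of 371 with mutant U1 in JVM3, 7 of 259 and 62 of 247 in HG3, and 0 of 206 and 46 of 227 in MEC1. Its share rose from 1.6% ± 1.4 to 19.4% ± 6.1 (SD, n = 3 lines), by 17.8 points. With 16 wild-type and 156 mutant reads over the lines, it too reached 20 reads through the mutant columns. No p is therefore given for it, and both calls in this grouping are a description. Beside these junctions, the gene counts of BRAF fell in JVM3 and HG3, and those of TRAF3 rose in HG3. The extra exons are shown as annotated, up to the early stop codon in capitals, because the stop sets these transcripts apart. For BRAF, 2 transcripts read the exon in different frames and stop at base 31 or base 24 of it, and which of them these reads come from was not tested.
BRAF extra exon, ENST00000479537.6: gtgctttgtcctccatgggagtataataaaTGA
BRAF extra exon, ENST00000644650.1: gtgctttgtcctccatgggagtaTAA
TRAF3 extra exon, ENST00000558700.5: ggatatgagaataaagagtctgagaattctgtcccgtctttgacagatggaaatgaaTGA

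**Figure D4:**
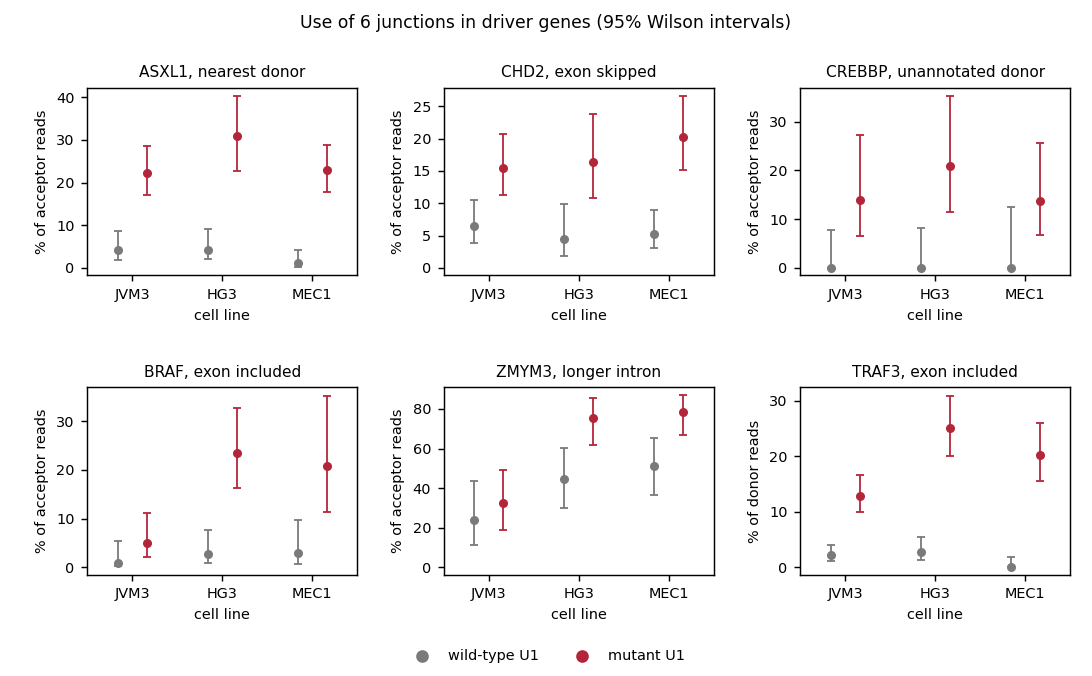
Percent use of 6 junctions in each line with wild-type (grey) and mutant U1 (red), as a share of reads at the same acceptor (TRAF3: at the same donor), with 95% Wilson intervals that cover counting error only. The TRAF3 panel shows the junction into the extra exon, not inclusion of the whole exon. The mutant point lies above the wild-type point in all 3 lines in each panel, and the intervals overlap for BRAF, ZMYM3 and CREBBP in JVM3 and for CREBBP in MEC1.

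The largest mean change of any tested junction in a driver was in ZMYM3 (ENSG00000147130) and did not pass. At the acceptor 70466362 on chromosome X, 2 donors 36 bases apart compete. The one farther from the acceptor, at 70466481, has G at intron base 6 and took 6 of 25 reads with wild-type and 11 of 34 with mutant U1 in JVM3, 17 of 38 and 37 of 49 in HG3, and 22 of 43 and 48 of 61 in MEC1. Its share went from 40.0% ± 14.2 to 62.2% ± 25.9, a rise in every line by 8.4, 30.8 and 27.5 points and by 22.2 ± 12.1 points on average (SD of the changes, n = 3 lines, adjusted p = 0.474). In all, 22 tested junctions at 12 acceptors in 9 drivers moved by at least 5 points with 1 sign in every line (12.9%), against 18.7% of all junctions tested. Among those that did not pass were MGA with 12.1 points, BAZ2A with 9.5, ATM with 8.2 and a second CREBBP pair with 7.7. The median absolute change of the drivers' junctions was 2.07 points, against 2.18 for all tested.

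Use of donors was also set beside the base that faces the mutated position. Of 159 donors of tested junctions, 50 could be read, all starting with GT, and 16 (32%) had G, 20 T, 7 A and 7 C at intron base 6. Donors with G changed by -4.7 to 22.2 points with a median of 2.1, and 6 were used more by at least 5 points and 0 less. These counts rest on the mean over lines and did not ask for 1 sign in every line, which the XPO1 donor lacked. The 6 include the ASXL1 donor at 31018979 and the CREBBP donor at 3795441, with 14 and 0 wild-type reads. Their junctions reached the minimum of 20 reads through the mutant columns, so they had to rise to be counted. This was checked for called junctions only. In all, 18 donors were used more by at least 5 points, and the base is known for these 6 alone. The other 12 were not read, among them the donors of the called CHD2 and BRAF junctions and those of MGA and BAZ2A with 12.1 and 9.5 points. Of 15 donors used less by at least 5 points, 4 were read. Donors with T changed by -21.5 to 3.6 points with a median of -1.1, and 0 were used more by 5 points and 2 less. With A and with C, 0 were used more by 5 points and 1 less in each. Donors of 1 acceptor share their reads and so are not independent, and the donors read are those that some transcript runs through, so these counts are a description without a test.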

How the data were processed

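Total RNA was depleted of ribosomal RNA and made into stranded libraries, per the labels' protocols. The authors deposited raw read counts per gene for 12 libraries and raw junction counts in 6 columns. The submitters' processing notes name STAR 2.5.4b, HTSeq 0.9.1 and the builds hg19 and GRCh37. They do not give the strand setting, the annotation or how junctions were filtered, so reads of overlapping or antisense genes cannot be told apart. Reads that did not align uniquely took 29.02% to 34.92% of all entries per library, reads outside features 17.72% to 24.93% and ambiguous reads 0.897% to 1.06%. These lines name no gene and were left out. A gene name table paired 39538 of the 57820 IDs with a symbol.

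The series text calls the replicates technical, and nothing says that they came from separate cultures. The junction columns carry no replicate number, hold 23.6% to 25.3% as many reads as the gene counts and were taken as pooled. For the test across lines, both replicates of a group were added up, which gave 3 mutant and 3 wild-type libraries, and these were fitted with edgeR 4.0.16 in R 4.3.3 (quasi-likelihood, robust, TMM, filterByExpr, 21270 genes, line as a block, Benjamini-Hochberg, threshold 0.05). Within lines and for the difference between lines, 12 libraries were fitted as 6 groups. SE are over the 3 lines' values, and CPM use TMM library sizes. Replicates differed by more than counting noise (mean chi-square per gene 2.45 to 5.95), so all were kept.

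Junctions of at least 20 reads that share an acceptor were tested with diffSpliceDGE. Coordinates are hg19 as in the table, and a junction's start and end are the exon bases that flank the intron. Genes were placed by runs of exact intron lengths of GENCODE release 29 (at least 3 introns and 2 times the next best place), which is on another build, and no coordinates were converted. Exon lengths per kilobase are from that release. Wilson intervals (95%) cover counting error only. On simulated data 169 of 193 genes changed 2-fold across lines were recovered (20758 genes tested), and 181 of 200 junctions changed by 30 points (25340 tested).

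Of the 32 genes, 20 are given in every library by the rule that takes those whose response differed between lines, by the smallest adjusted p. The other 12 are given by their log2 fold changes. Junctions named by rule are those called and the largest changes with 1 sign in every line. The members and lists were chosen with earlier results of these data known, and the lists are no independent support. Alternatives were DESeq2 1.42.0, RLE size factors, no filter, unsummed libraries, a replicate block, limma 3.58.1 on log ratios of junctions (0.5 added to both counts), read minimums of 50 and 10, grouping by donor, and leaving out each line or library.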

Additional observations from a re-analysis of the deposited data

Results flagged for a closer look

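The response to mutant U1 differed between the 3 lines for 23 of the 32 driver genes by edgeR's test of the interaction, which was judged against technical replicates only. In order of the adjusted p, these were KLHL6 (7.96e-14), ITPKB (2.47e-12), BAZ2A (1.52e-10), NFKBIE (2.01e-10), CREBBP (4.12e-10), CHD2 (3.4e-09), SF3B1 (1.74e-08) and BCOR (1.17e-07). Next came ARID1A (1.34e-05), BIRC3 (4.55e-05), SAMHD1 (7.82e-05), DDX3X (0.000122), NOTCH1 (0.000142), EGR2 (0.000154) and MAP2K1 (0.000501). The remaining genes were TRAF3 (0.00179), IKZF3 (0.00376), ATM (0.004), RB1 (0.00529), ASXL1 (0.00796), FBXW7 (0.0131), XPO1 (0.0141) and MGA (0.0169). Of the first 6 by adjusted p, KLHL6, ITPKB, NFKBIE, CREBBP and CHD2 had log2 fold changes of both signs among the lines, and BAZ2A was higher with mutant U1 in all 3 to different extents.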

How the results depend on the processing

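The limit on the test across lines is that 3 lines give 3 pairs. Of the 32 genes, 0 passed in the main analysis and with RLE size factors, 3 with DESeq2, 5 without a filter, 13 with the 12 libraries unsummed and 1 without HG3. Leaving out single libraries gave 0 to 2. Over all genes the count of 784 became 1315 with DESeq2, 2540 without a filter, 6641 unsummed, and 380, 320 and 341 without JVM3, HG3 and MEC1. Leaving out single libraries gave 845 to 1051. These totals are given without the number of genes tested under each setting, so shares were not compared. The cause of these differences was not tested, beyond the fewer samples left without a line. Within lines the 18, 21 and 19 genes that passed ranged over 12 to 19 in JVM3, 17 to 21 in HG3 and 15 to 20 in MEC1 when 1 library was left out, and the 23 differences between lines over 20 to 25.

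The replicate block rests on numbers that the groups share. Same-numbered samples deviated together with correlations that were 0.0625 (JVM3), 0.144 (HG3) and 0.299 (MEC1), so the numbers were not taken as pairs. With the replicate block on 12 libraries, 11 of the 32 genes and 5084 of all genes passed across lines, and within lines 23, 23 and 21 of the 32, with 27 differences between lines. Counts of all genes within lines are not given here for this setting, so these are a description.

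Some log2 fold changes across lines changed sign when a line was left out. Without HG3 these were ITPKB (0.24 with all lines, -0.02), CHD2 (-0.09), SAMHD1 (0.05) and TRAF3 (-0.02), without MEC1 CREBBP (-0.07) and DDX3X (0.03), and without JVM3 IKZF3 (0.02) and ASXL1 (0.03). None of these values passed. For junctions, 4 were called, and 2 at 50 reads, without HG3 and without MEC1, all of them among the 4. With limma 2 were called, 1 of them among the 4, and grouped by donor 2, of which 0 were. Without JVM3 3 of the 4 calls were kept and 1 was another junction. The 998 called over all junctions became 291 with limma, 536 without HG3 and 569 without MEC1. Depth limits the CREBBP and BRAF junctions, which were left with too few reads to test under some settings.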
